A study of Mus musculus with 37 samples.

Results

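The genes described here encode 8 proteins of the lysosome, chosen by name from a table of 23947 genes: the sphingolipid hydrolases Hexa, Glb1 and Asah1, the activator proteins Psap and Gm2a, the luminal protein Grn, and the membrane proteins Lamp1 and Lamp2. The choice was made with earlier results of these data known. All 8 symbols were found in the table. They were measured in 37 single cells whose label is adipose tissue macrophage. The donors were male C57BL/6J mice fed a high-fat diet (60% of the energy from fat, 20% from carbohydrate and 20% from protein), and the tissue was eWAT, the epididymal white fat pad. The sources used here give neither their age nor the gate of the sort. Every cell carried the same diet, strain, tissue and cell type label, so there was 1 group. No label names the animal a cell came from, and the group counted as 1 sample. All values therefore describe these cells, without a p-value or a standard error. Cells keep the numbers of their labels, 0 to 36. By its title, the study looked for separate kinds of macrophage in fat.

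The lysosome is the acidic compartment in which cells break down what they have taken up and what they recycle. Sphingolipids are membrane lipids built on ceramide, and they are degraded there stepwise, sugar by sugar, by soluble hydrolases. Several of these hydrolases reach their lipid only with the help of small activator proteins, which lift it from the membrane or bind it in the lumen. Macrophages of obese adipose tissue take up lipid from adipocytes and dying cells and are known for a large lysosomal compartment. Transcription of many lysosomal genes is controlled by TFEB, TFE3 and MITF, which bind the sequence CACGTG within the so-called CLEAR element.

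Levels are in FPKM, which divides fragments by transcript length and by the mapped total, so they can be set side by side between genes. Detection means a level of at least 1 FPKM. Per cell, 1224 to 3204 genes were detected, and the FPKM sum ran from 225528 to 1841666. The number of fragments is unknown, and the worth of 1 fragment, estimated from the low values, spanned 94.4-fold between cells. In 6 cells (2, 7, 15, 17, 24 and 26) it was more than 4 times the median. They are called shallow, and cell 11 lay just under this limit at 3.94. The name rests on that estimate alone. Cell 7 had the most genes detected of all cells, 3204, and cells 2 and 24 had 2464 and 2424, above the median of 1824. Macrophage markers were found throughout, with 8 to 13 of the 14 listed markers in the table detected per cell. Cells 7 and 27 stood apart, since each also held 7 of 8 markers of fibroblasts and adipocyte progenitors. Dcn, a matrix proteoglycan, stood there at 2582 and 6654 FPKM, with 5.03 FPKM as the highest of the other cells. Their macrophage markers summed to 327 and 139 FPKM, against a median of 15130 FPKM over all cells. No cell held 3 markers of the adipocyte, endothelial, T, B, NK, neutrophil, dendritic, mast cell and eosinophil, mesothelial or erythroid lists.

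The stretches just before the transcription start of 3 members are printed first: Lamp1 and Glb1, the members whose windows held the motif CACGTG, and Lamp2, the family partner of Lamp1, whose window did not. They were chosen after the values and windows had been seen. Promoter windows from RefSeq (build GRCm38.p6) were at hand for Hexa, Glb1, Psap, Gm2a, Grn, Lamp1 and Lamp2, and Asah1 had no entry. The 100 bases before the start site are shown 5′ to 3′ on the gene's own strand, and capitals mark CACGTG, a motif that reads the same on both strands. The stretches are chr8:13159061-13159160 on the plus strand for Lamp1, chr9:114400978-114401077 on the plus strand for Glb1 and chrX:38456461-38456560 on the minus strand for Lamp2.
Lamp1: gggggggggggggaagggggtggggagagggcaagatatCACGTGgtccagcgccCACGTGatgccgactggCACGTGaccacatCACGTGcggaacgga
Glb1: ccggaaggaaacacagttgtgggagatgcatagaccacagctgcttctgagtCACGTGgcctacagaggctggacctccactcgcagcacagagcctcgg
Lamp2: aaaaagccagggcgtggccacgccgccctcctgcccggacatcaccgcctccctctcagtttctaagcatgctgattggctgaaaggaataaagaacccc

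In the 250 bases before the start, Lamp1 held 4 copies of CACGTG, between 15 and 61 bases from the start, and Glb1 held 1, at 48 bases. All 5 were also matches to TCACGTG, a longer form that overlaps CACGTG and was searched on both strands. The windows of Hexa, Psap, Gm2a, Grn and Lamp2 did not hold these letters. Of 32851 promoter windows of this length, 6.02% held CACGTG and 3.13% held TCACGTG. A match is a description of the sequence only.

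Of the 8 members, 7 were detected in at least 19 of the 37 cells, as were 4.03% of all genes in the table, and 8 in at least 5 cells, as were 19.6% of all genes. Glb1 was the exception. The members were chosen with earlier results of these data known, so this contrast with all genes cannot be told apart from that choice. The medians of the 7 ran from 16.5 to 135 FPKM, ranks 163 to 435 of the table. Their values spread over several orders of magnitude from cell to cell.

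Hexa encodes the alpha subunit of beta-hexosaminidase A, the enzyme that removes the terminal sugar of GM2 ganglioside. Its lowest value was 0, in cell 12, its median 44.2 FPKM and its highest 3002 FPKM, in the shallow cell 26. It was detected in 31 cells (83.8%, exact Clopper-Pearson 95% interval 68.0% to 93.8%, which covers the sampling of cells only). Cells fell at both ends of the scale, with 14 cells at 100 FPKM or more and 6 cells under 1 FPKM. The SD of Hexa over cells on the log2(FPKM + 1) scale was 3.33, against a median SD of 2.84 over the 965 genes detected in at least 19 cells. With each cell rescaled to a sum of 1000000, cell 30 led at 2752, ahead of cell 26 at 2465.

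Glb1 encodes lysosomal beta-galactosidase, which acts on GM1 ganglioside and whose activity at mildly acidic pH is the common stain for senescent cells. It was listed at 0 in 20 cells, and its median was 0. Its highest value was 775 FPKM, in cell 27, which also held fibroblast genes. Glb1 was detected in 8 cells (21.6%, 9.83% to 38.2%), and in 17.1% of cells once cells 7 and 27 were left out. Values were high in few cells, since 245 FPKM in cell 6 and 154 FPKM in cell 14 were the only others above 100 FPKM. Cell 3 followed at 26.9 FPKM, cell 29 at 9.18, cell 4 at 4.15, cell 7 at 2.70 and cell 11 at 2.46 FPKM. By putative library part, cells 0 to 19 held 6 of the 8 detections and cells 20 to 36 held 2. A value of exactly 0 may stand for an estimate that failed, and such genes are said only to be listed at 0.

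Asah1 encodes acid ceramidase, which splits ceramide into sphingosine and a fatty acid at the end of the pathway. Its lowest value was 0, in cell 32, its median 16.5 FPKM and its highest 235 FPKM, in the shallow cell 15. It was detected in 28 cells (75.7%, 58.8% to 88.2%). The upper end was flat, with cells 10, 19 and 3 at 231, 220 and 205 FPKM close to the highest. The 20 cells of the first part had a median of 31.4 FPKM and the 17 of the second 4.31 FPKM, with overlapping ranges; the parts are not in the labels, and the difference was not tested.

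Psap encodes prosaposin, the precursor that is cut into saposins, the activators of several sphingolipid hydrolases, acid ceramidase among them. Its lowest value was 0.0540 FPKM, in cell 8, its median 40.5 FPKM and its highest 2884 FPKM, in cell 24. It was detected in 31 cells (83.8%, 68.0% to 93.8%). Its leading cells, 24 and 26 at 2884 and 908 FPKM, were both shallow, and without shallow cells the median was 26.9 FPKM.

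Gm2a encodes the GM2 activator protein, which presents GM2 ganglioside to beta-hexosaminidase A. Its lowest value was 0.367 FPKM, in cell 30, its median 63.6 FPKM and its highest 920 FPKM, in cell 18. It was detected in 35 cells (94.6%, 81.8% to 99.3%), and it was listed above 0 in every cell. Gm2a varied least among the 7 widely detected members, with an SD of 2.12 on the log2(FPKM + 1) scale, and 111 of the 965 genes had a smaller one. It was also the member that ran most against the worth of 1 fragment (rho -0.53), and all 6 shallow cells lay below its median.

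Grn encodes progranulin, a secreted and lysosomal glycoprotein that is cut into granulins and travels to the lysosome with prosaposin or by sortilin. It had the highest median of the members, 135 FPKM, with a lowest value of 0.728 FPKM in cell 15 and a highest of 6422 FPKM in cell 24. It was detected in 35 cells (94.6%, 81.8% to 99.3%). In 22 cells it reached 100 FPKM. Its low end held 2 cells under 1 FPKM and 6 between 1 and 10 FPKM, so detection at 1 FPKM overstates how many cells held it at a marked level. At 3% of its own mean, 29 cells remained.

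Lamp1 and Lamp2 encode the most abundant glycoproteins of the lysosomal membrane. Their sugar-coated domains line its inner face, and Lamp2 also serves autophagy. Lamp1 had a lowest value of 0.0621 FPKM in cell 0, a median of 48.8 FPKM and a highest of 825 FPKM in cell 27. Lamp2 had a lowest value of 0.0757 FPKM in cell 32, a median of 35.99 FPKM and a highest of 442 FPKM in cell 11. They were detected in 32 cells (86.5%, 71.2% to 95.5%) and 31 cells (83.8%, 68.0% to 93.8%). In 7 cells (4, 7, 9, 11, 14, 27 and 28) both reached 100 FPKM, and in 6 cells (0, 12, 19, 22, 23 and 32) both were under 5 FPKM. Lamp1 was the higher of the pair in 21 of 37 cells.

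Medians differed between the library parts, by over 1.5 times in 6 of the 7 members other than Glb1. In cells 0 to 19 and cells 20 to 36 they were 19.8 and 51.7 FPKM for Hexa, 46.0 and 26.9 FPKM for Psap and 107.7 and 167 FPKM for Grn. For Lamp1 they were 63.5 and 37.5 FPKM and for Lamp2 67.1 and 27.002 FPKM, while Gm2a, at 76.0 and 60.1 FPKM, was nearer. Hexa and Grn were higher in the second part and the other 5 of the 7 in the first. These differences were not tested.

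**Figure D1:**
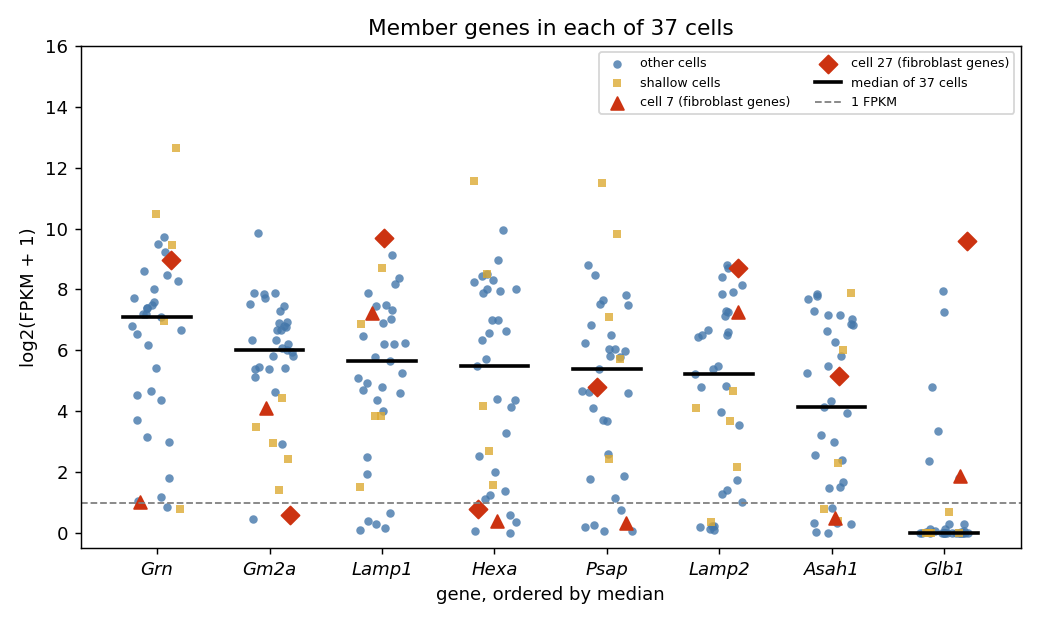
The vertical axis gives log2(FPKM + 1) of every cell (37 points per gene), and the horizontal axis the members, ordered by median. Bars are medians, squares the shallow cells, the triangle and diamond cells 7 and 27 (cell 7 is also shallow), and the dashed line 1 FPKM; Glb1 lies at or near 0 in most cells, while the other members spread from under 1 FPKM to more than 100 FPKM.

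By median the order of levels was Grn, Gm2a, Lamp1, Hexa, Psap, Lamp2, Asah1 and Glb1. Neighbours differed little beside their spread. Grn was above Gm2a in 20 of 37 cells, Gm2a above Lamp1 in 17, Lamp1 above Hexa in 18, Hexa above Psap in 19, Psap above Lamp2 in 18 and Lamp2 above Asah1 in 21. The quartile ranges of each of these pairs overlapped. Only the last step was clear of its spread, with Asah1 above Glb1 in 32 cells and quartile ranges that did not overlap.

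Single cells carried much of the summed signal. Of the FPKM summed over cells, 63.5% of Glb1 came from cell 27, 45.4% of Psap and 44.3% of Grn from cell 24, and 38.0% of Hexa from cell 26. For Asah1 and Lamp2 the highest cell gave 10.7% and 11.9%. A cell's FPKM sum enters these shares, and cells 24, 26 and 27 had sums above the median of 326230. With each cell rescaled to an equal sum, Glb1 stood at 951 in cell 27 and 857 in the next, cell 6. Psap then stood at 1566 in cell 24 and 1244 in cell 4, and Grn at 3487 in cell 24 and 2394 in cell 35. Cell 30 led cell 26 for Hexa, while for Gm2a cell 18 kept a wide lead, at 2723 against 916 in cell 21.

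A median of 6 of the 8 members was detected per cell, and 28 cells held at least 6. All 8 were found in cells 3, 4, 6, 11, 14 and 29, and the 7 other than Glb1 in 17 cells. The fewest were found in cell 22, with 3 (Asah1, Gm2a and Grn), followed by cells 12, 30 and 34 with 4 each. The number of members detected ran with the number of all genes detected in the cell (rho 0.41 over 37 cells, 0.54 without cells 7 and 27). Together the 8 members made up 0.0503% to 0.530% of a cell's FPKM sum, with a median of 0.232%.

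**Figure D2:**
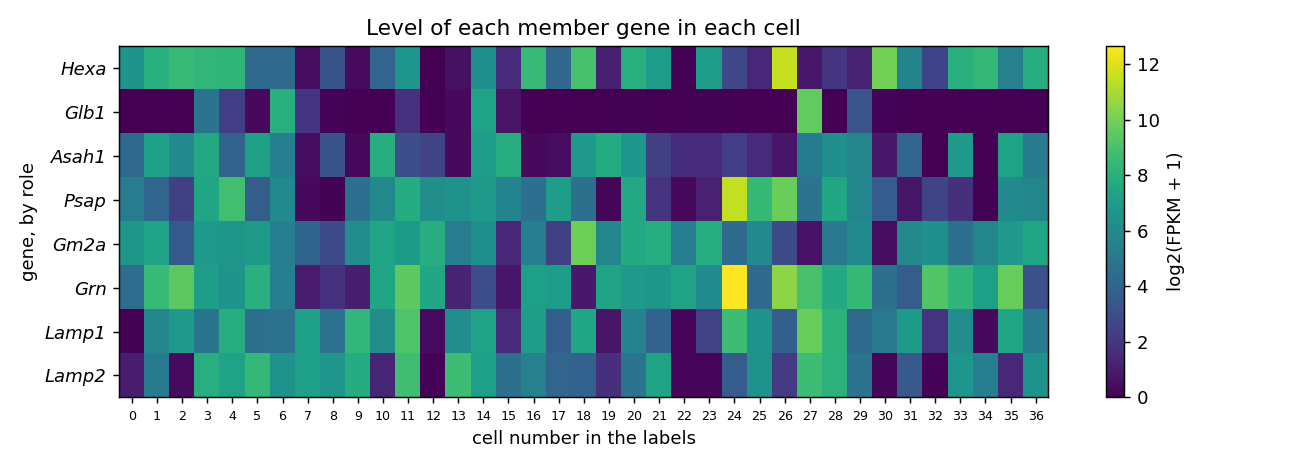
Level of each member, in rows, in each cell, in columns by cell number, as log2(FPKM + 1) in colour. Cells such as 3, 4, 11 and 14 are bright in most rows, cell 22 is dark in most rows, and the Glb1 row is dark in most cells.

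The members did not vary as a block. Over the 28 pairs of members, Spearman rho ran from -0.27 to 0.49, with a median of 0.10, beside a median of 0.04 over 465130 pairs of genes detected in at least 19 cells. Of the 28 pairs, 20 were above 0, against 57.7% of all pairs. In 21 pairs rho lay between -0.2 and 0.2. These correlations are over cells that share 1 sample and differ in depth, and they are given as descriptions.

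The membrane proteins were the closest pair. Lamp1 and Lamp2 had rho 0.49 and Pearson r 0.53 on the log2(FPKM + 1) scale. Spearman rho was 0.49 in each library part, 0.43 without cells 7 and 27, 0.54 without the shallow cells and 0.38 once the gene number per cell was regressed out. Leaving out the 2 cells most distant from the Lamp1 median gave r 0.45. Glb1 and Lamp2 followed with rho 0.47 and r 0.41. All 8 cells with Glb1 also held Lamp2, where the product of their detection shares gives 6.70. Lamp1 and Grn were likewise found in all 8, with rho 0.13 and -0.27 with Glb1. For Glb1 with Lamp2, rho was 0.61 in the first part and 0.03 in the second. In the second part Glb1 was detected in only 2 cells, so little can be read from that value. For Psap and Lamp1 rho was 0.35 and r 0.38, and the parts gave 0.19 and 0.53. Without cells 7 and 27, rho was 0.40 for Glb1 with Lamp2 and 0.42 for Psap with Lamp1. Of the 28 member pairs, 13 had rho of opposite sign in the parts, among them Asah1 with Lamp1 at -0.30 and 0.61.

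The correlation was lower for most other pairs whose proteins are known to work together. Hexa and Gm2a, enzyme and activator, had rho 0.17 and r 0.14 and shared 30 cells, where the product of their detection shares gives 29.3. Psap and Asah1 had rho 0.10 and r 0.10, and Psap and Grn rho 0.18 and r 0.24, the latter rho being 0.01 without the shallow cells. Glb1 is held in a complex with Ctsa, the protective protein cathepsin A, and that pair had rho 0.20 and r 0.21, with Ctsa found in all 8 cells that held Glb1, where the product of shares gives 6.27. The sialidase gene Neu1, of the same complex, had rho -0.27 and r -0.09 with Glb1. Ctsa also had rho 0.35 and r 0.32 with Lamp2. Without the shallow cells rho of Ctsa was 0.42 with Glb1 and 0.53 with Lamp2. In all, 11 such pairs were compared, chosen from known partnerships after the values had been seen.

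**Figure D3:**
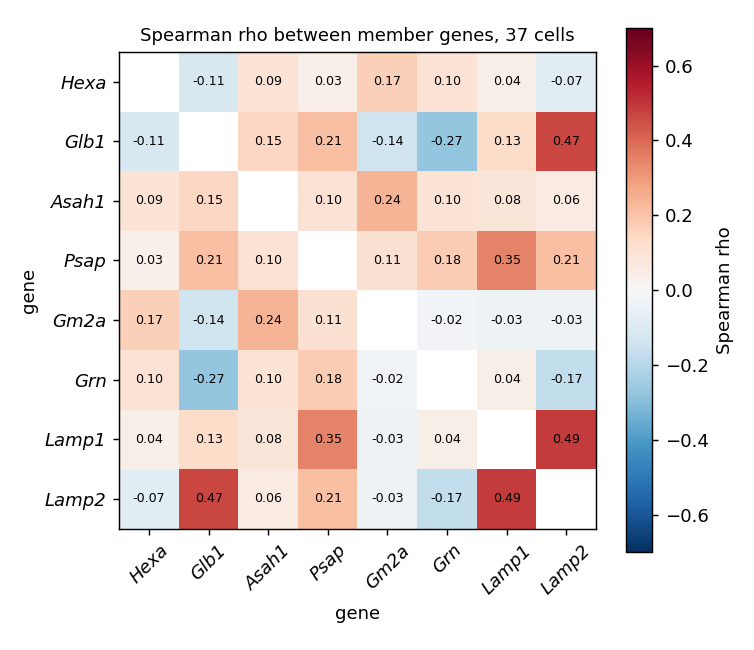
Spearman rho over 37 cells for each pair of members, in colour from blue (negative) to red (positive) and as numbers. The red fields are Lamp1 with Lamp2 at 0.49, Glb1 with Lamp2 at 0.47 and Psap with Lamp1 at 0.35, and most other fields are pale.

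Each member was also set against the other 958 genes detected in at least 19 cells, and the 3 most alike were taken. For Lamp1 these were Anxa2, an annexin that binds membranes (rho 0.68, r 0.60), the immunophilin Fkbp1a (0.62, r 0.62) and Kdelr2, a retrieval receptor of the endoplasmic reticulum (0.58, r 0.51). The Anxa2 value was 0.72 and 0.68 in the library parts, 0.68 without cells 7 and 27 and 0.52 with gene number regressed out. For Lamp2 they were the myosin light chain gene Myl6 (rho 0.58, r 0.59), Chmp5 of the ESCRT machinery that sorts cargo into multivesicular bodies (0.53, r 0.58) and the pentose phosphate enzyme gene Pgd (0.53, r 0.50).

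For Gm2a the most alike gene was Ctss, the lysosomal protease cathepsin S (rho 0.62, r 0.58), followed by Cd84, a leukocyte surface receptor (0.46, r 0.44), and the superoxide dismutase gene Sod1 (0.44, r 0.56). The Ctss value was 0.53 and 0.60 in the parts, 0.57 without cells 7 and 27 and 0.50 without the shallow cells. The Sod1 value was less even, at 0.69 and 0.11 in the parts and 0.29 without the shallow cells. For Psap they were the phosphatase gene Ptpn1 (rho 0.60, r 0.56), Cyba, a subunit of the phagocyte oxidase (0.59, r 0.43), and Actb (0.56, r 0.54). The Actb value was 0.40 with each cell rescaled to an equal sum. For Hexa they were Ndufb8 of respiratory complex I (rho 0.56, r 0.50), Tnfaip8 (0.54, r 0.51) and the lectin receptor gene Clec4a2 (0.49, r 0.45).

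For Glb1 the list was headed by the sorting nexin gene Snx6 (rho 0.53, r 0.35), the tetraspanin gene Cd63, whose protein is itself abundant in lysosomes (0.52, r 0.40), and the peroxiredoxin gene Prdx1 (0.48, r 0.37), all of them ranked over a gene listed at 0 in 20 cells. For Asah1 it was headed by Rasa1 (rho 0.50, r 0.40), the ribosomal protein gene Rps6 (0.46, r 0.52) and Pfdn5 (0.45, r 0.40). The Rps6 value was 0.18 and 0.73 in the parts. For Grn it was headed by Aprt, Fhl3 and Rassf2, each at rho 0.49 or 0.50. These are the highest of 7664 values, so some height comes from the choice itself, and members shared none of their 3 genes.

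**Figure D4:**
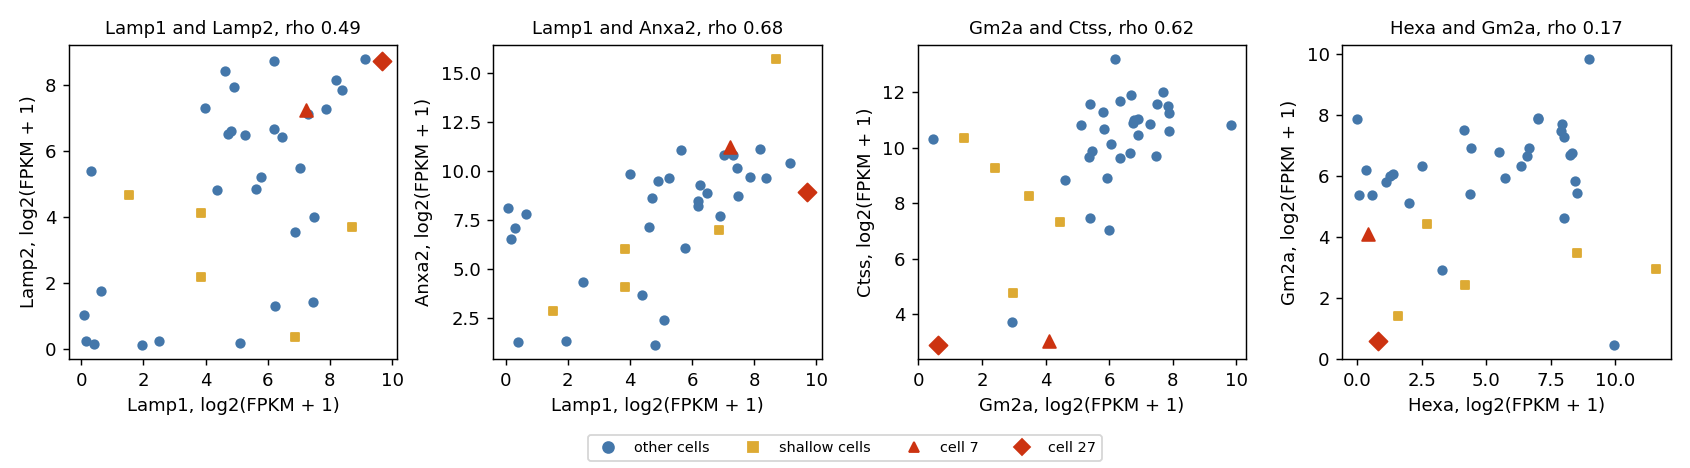
Values of pairs of genes in 37 cells, both axes as log2(FPKM + 1), with squares for shallow cells and the triangle and diamond for cells 7 and 27. Lamp1 with Lamp2, Lamp1 with Anxa2 and Gm2a with Ctss rise together at rho 0.49, 0.68 and 0.62, while Hexa with Gm2a is scattered at rho 0.17.

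The mean z value of the 8 members was used as a summary of the list. It ran with the number of genes detected in the cell (rho 0.52). The 10 genes most alike to it were Anxa2 (rho 0.62), the glycolytic enzyme gene Aldoa (0.56), Cd63 (0.56), Myl6 (0.54), Atp6ap1, an accessory subunit of the lysosomal proton pump (0.54), Smpdl3a, a phosphodiesterase related to acid sphingomyelinase (0.54), the histone gene H2afz (0.54), Ctsd, the lysosomal protease cathepsin D (0.52), Cyba (0.52) and the actin-capping gene Capza1 (0.52). With gene number regressed out these values were 0.36 to 0.50. The 5 at the other end were the neutrophil chemokine gene Cxcl2 (-0.52), Ik (-0.51), Zfp36l1 (-0.48), Ppp1r15a (-0.46) and Nfkbiz (-0.45). Cxcl2 had rho -0.53 and -0.52 in the parts and -0.43 with gene number regressed out. Not all of these genes were as even, with Ppp1r15a at -0.70 and -0.05 in the parts and Cyba at 0.72 and 0.24. Genes with many processed copies, such as Actb, Aldoa, Rps6, H2afz and Myl6, may hold reads of those copies, which makes their levels uncertain.

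In absolute size, rho with 11 genes that mark macrophage states was at most 0.42 over all cells. Of 88 pairs of a member with such a gene, 10 (11.4%) reached an absolute rho of 0.35, beside 5.33% of all pairs of widely detected genes, and 12 did without the shallow cells. The limit of 0.35 was set after the values were seen. Unlike the background, the 88 also hold pairs of Glb1 and Gpnmb, which were not widely detected. Lamp1, which is in several of the 10 pairs, itself ran with the number of genes detected (rho 0.58). Gpnmb, a glycoprotein of lipid-laden macrophages detected in 14 cells, ran with Lamp1 (rho 0.42, r 0.40), Psap (0.41, r 0.33) and Hexa (0.39, r 0.44). With gene number regressed out these values were 0.22, 0.36 and 0.39. In the first and second part rho was 0.30 and 0.50 for Lamp1, 0.38 and 0.33 for Psap and 0.55 and 0.16 for Hexa. Mrc1, which encodes the mannose receptor CD206, ran against Lamp1 (rho -0.41, r -0.41), and stood at rho -0.35 with Lamp2 and -0.34 with Psap. The Lamp1 value was -0.48 and -0.35 in the parts and -0.44 with gene number regressed out. Trem2, a lipid-sensing receptor, had rho 0.41 and r 0.36 with Lamp1, at 0.62 in the first part and 0.09 in the second. The Trem2 value was 0.28 with gene number regressed out. Cd9, a tetraspanin, had rho 0.35 and r 0.30 with Lamp1, which fell to 0.08 with gene number regressed out. Grn ran with Apoe, the main apolipoprotein of macrophages (rho 0.36, r 0.42), and Gm2a against the immediate early gene Fos (-0.37, r -0.46). With gene number regressed out these values were 0.43 and -0.42. Cxcl2 had rho -0.37 with Lamp1 and -0.36 with Psap, at -0.23 and -0.31 with gene number regressed out. Cd74 and H2-Ab1, of antigen presentation by MHC class II, ran against Grn, at rho -0.30 (r -0.18) and -0.26 (r -0.19). Without the shallow cells these values were -0.66 and -0.63, the farthest from 0 among the 88 pairs under that choice, and with gene number regressed out they were -0.16 and -0.18. Among the other members, H2-Ab1 had its highest rho, 0.28, with Hexa, and Cd74 its lowest, -0.33, with Lamp2.

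In the pair of cells with fibroblast genes, Lamp1 and Lamp2 stood above the medians of the other cells and Hexa and Gm2a below. Lamp1 stood at 149 FPKM in cell 7 and 825 FPKM in cell 27, and Lamp2 at 151 and 421 FPKM, all above the medians of 37.5 and 27.5 FPKM in the other 35 cells. Cell 7 was not extreme, since 8 of the 35 were higher for Lamp1 and 8 for Lamp2. Hexa stood at 0.328 and 0.736 FPKM, against a median of 51.7 FPKM in the others, though 4 of the 35 were also under 1 FPKM. Gm2a stood at 16.1 and 0.519 FPKM, against a median of 66.1 FPKM, and 29 and 34 of the 35 were higher. Grn differed between the pair, at 1.04 and 498 FPKM, as did Psap at 0.260 and 26.9 FPKM and Asah1 at 0.402 and 34.5 FPKM. Glb1 was detected in both, at 2.70 and 775 FPKM, with 245 FPKM as the highest of the other 35 cells. Ctss, which tracked Gm2a, was at 7.31 and 6.42 FPKM, below the lowest of 12.1 FPKM elsewhere, while Cd63 was at 1019 and 2731 FPKM against a median of 380 FPKM. These are 2 cells, and their part was measured only for the relations above whose value without them is given. Without them, rho with Lamp1 was 0.46 for Gpnmb, 0.54 for Trem2, 0.26 for Cd9 and -0.33 for Mrc1.

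Most genes of the related lists were detected in fewer cells than most members. Members and lists were chosen with earlier results of these data known, so the contrast cannot be told apart from that choice. Among 12 other lysosomal glycolipid hydrolases and lipid handling proteins, 4 were detected in at least 19 cells and 9 in at least 5, with a median of 10 cells per gene. Npc2, a cholesterol carrier of the lumen, had a median of 35.8 FPKM and was found in 33 cells. Lipa, the acid lipase that frees cholesterol and fatty acids, had 32.6 FPKM and 32 cells, and Ctsa 17.05 FPKM and 29 cells. Chosen after their values were seen, Galc and Smpd1, the hydrolases of galactosylceramide and sphingomyelin, were detected in 10 and 2 cells. The acid sphingomyelinase gene Smpd1 reached 268 FPKM in cell 27 and was at most 8.30 FPKM in the 35 cells without fibroblast genes.

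Among 15 other lysosomal membrane proteins, 2 were detected in at least 19 cells and 9 in at least 5. Cd63 had a median of 404 FPKM (35 cells) and Laptm5, a gene of blood cells, one of 279 FPKM (37 cells), both above the medians of Lamp1 and Lamp2. Laptm4a was detected in 17 cells and Scarb2, a scavenger receptor of the lysosomal membrane, in 7. Lamp3, the third gene of the LAMP family and a marker of activated dendritic cells, did not reach 1 FPKM in any cell and was listed at 0 in 36. By the limit of 3 counts for a count of 0, that allows a share of 8.11% of cells at this level, and the exact interval used for the other shares reaches 9.49%.

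Of 18 genes for sphingolipid synthesis, Degs1, which forms ceramide from dihydroceramide, was the 1 detected in at least 19 cells (19 cells, median 1.80 FPKM). The galactosyltransferase genes B4galt5 and B4galt6 were detected in 17 and 15 cells and the ceramide synthase gene Cers2 in 13. Of 8 genes for lysosomal sorting, the mannose 6-phosphate receptor genes Igf2r and M6pr were detected in 25 and 20 cells and Lrp1, an uptake receptor for prosaposin, in 21. Their medians were 4.42, 1.14 and 2.82 FPKM. Tmem106b, a lysosomal membrane gene linked to progranulin, was found in 9 cells. Of 6 transcription regulators none was detected in 19 cells and 5 in at least 5, with Mitf in 9 cells, Tfe3 and Flcn in 8 and Tfeb in 6. Tfeb was named although its median of 0 is shared with other genes of its list.

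**Figure D5:**
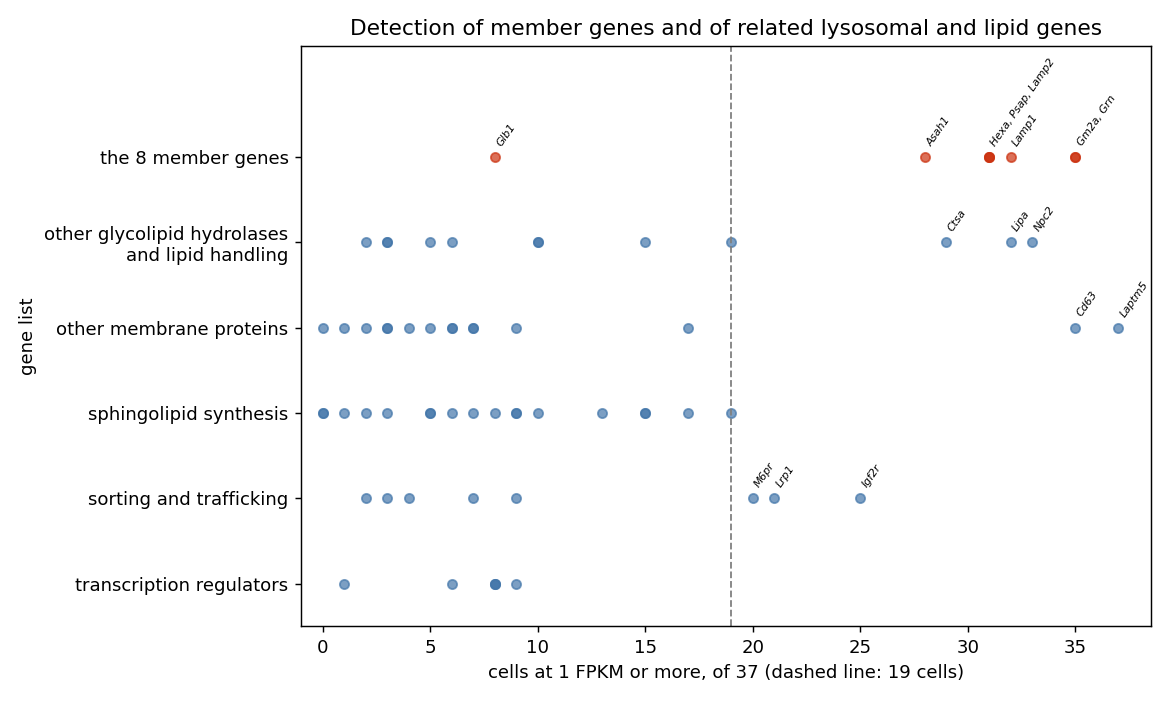
Number of cells, of 37, in which each gene was at 1 FPKM or more, on the horizontal axis, for the members (red) and 5 lists of related genes (blue), 1 row per list; names are given for members and for genes in more than 19 cells. In the rows of related genes most points lie left of the dashed line at 19 cells, while 7 of the 8 members lie right of it. Members and lists were chosen with earlier results of these data known.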

How the data were processed

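After collagenase digestion for 30 min and sorting, cells went onto a Fluidigm C1 chip, and libraries were made with Nextera XT, per the labels' protocols. The deposited values are FPKM, 1 column per cell; reads were aligned with STAR to mm9 and FPKM made with Cuffnorm by the authors, per the submitters' processing notes. The sources used here give no tool versions and no annotation. Fragment numbers are unknown, and no count test was used. FPKM was transformed to log2(FPKM + 1), with numpy 2.4.6, pandas 2.3.3 and scipy 1.17.1. A gene was detected at 1 FPKM or more. The worth of 1 fragment was the least-squares solution of the most frequent ratios of values between 0.001 and 1 FPKM over pairs of cells. Of 666 pairs, 644 were kept. The lower limit of 0.001 FPKM was set so that simulated data were recovered, so that test is not an independent one. The simulated cells took the depths estimated here, in shuffled order. With another lower limit, an earlier analysis of this table differed in its shallow call for cell 11. Cells 0 to 19 and 20 to 36 are putative library parts, not in the labels; an earlier analysis of this table drew them from shared low-value genes, and they were not derived anew. Where gene number was regressed out, ranks were corrected linearly for the rank of genes detected. Named genes were the 8 members, the 3 genes most alike to each, the 10 most and 5 least alike to the mean z value of the members, the 4 of highest median in each list, and 11 state genes; some genes of the lists and partner pairs count in the totals and are not reported here. Members and lists were chosen with earlier results of these data known, and partner pairs, the rho limit of 0.35, the 5 and 100 FPKM limits for Lamp1 and Lamp2 and the promoter motif after the values were seen. Alternatives were other detection limits (0.1 and 5 FPKM, 3% of a gene's mean), pseudocounts (0.1 and 10), means in place of medians, rescaling to an equal sum or by size factors, removal of gene number, and leaving out shallow cells, cells 7 and 27 or either part. RefSeq promoters carry build GRCm38.p6, and no coordinates were joined to the mm9 values.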

Additional observations from a re-analysis of the deposited data

How the results depend on the processing

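The fragments per cell are unknown, and the worth of 1 fragment differs between cells, which limits every value here. With each cell rescaled to a sum of 1000000, the median of the members' medians was 126 in place of 42.3, as a change of unit. Of the related lists, the sphingolipid synthesis genes detected in at least 19 cells numbered 5 at 0.1 FPKM and 0 at 5 FPKM, against 1 at 1 FPKM, and the sorting genes numbered 0 at 5 FPKM, against 3. The other 35 summary values tested stayed within 1.5 times (counts and levels) or 0.1 (median rho) of the reported value. The limit of 0.1 is as wide as the members' median rho of 0.10 itself, so it says little there. That median was 0.16 in cells 0 to 19 and 0.009 in cells 20 to 36. Of 134 values for single members or pairs, 18 moved beyond the SD over cells (levels), the exact interval (detection shares) or 0.1 (rho), 12 of them detection shares. The SD over cells is wide, so part medians over 1.5 times apart stay within it. The rho values among the 134 cover only the 3 pairs farthest above 0, and over all 28 pairs 13 changed sign between the library parts.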

Other observations

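Different members led in different cells. Grn was the highest of the 8 in 9 cells, Hexa in 7, Gm2a and Lamp1 in 5 each, Lamp2 in 4, Asah1 and Psap in 3 each and Glb1 in 1, cell 6. Cells 30 and 34 held Hexa at 985 and 344 FPKM, while Asah1 stood at 0.767 and 0.0280 FPKM there. In cell 19 the reverse held, with Asah1 at 220 FPKM and Hexa at 1.19 FPKM. These cells are examples only. Over all 37 cells Hexa and Asah1 had rho 0.09. Both were detected in 25 cells, where the product of their detection shares gives 23.5.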
